A study of Homo sapiens with 6 samples.

Results

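ANGPTL4 and 8 genes that belong with it in the peroxisome proliferator-activated receptor (PPAR) response were examined in PC3 cells that had been transfected with a control siRNA or an siRNA against CITED2. The 9 genes were ANGPTL4, the target genes PDK4, CPT1A, PLIN2, FABP4 and ACADVL, and the receptors PPARA, PPARD and PPARG. They were taken by gene symbol from the 24462 symbols of the count files. ANGPTL4 was chosen by its rise in this same comparison, so its difference between the groups is given as a description without a test. The other 8 genes were chosen for their known place in the PPAR response, to ask whether ANGPTL4 rose alone, with other results of these data already known. Of the 9 genes, 8 had enough counts to enter the comparison across 16314 genes, and FABP4 did not.

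PC3 is an established prostate cancer line that was derived from a metastasis in bone. The 6 RNA-seq libraries comprised 3 from PC3 cells given a non-targeting siRNA (si-Control) and 3 from PC3 cells given an siRNA to CITED2 (si-CITED2). Both groups were grown in RPMI1640 with fetal bovine serum and received siRNA at 80 nM. The study describes its experiments as independent repeats. Its methods list 1 CITED2 siRNA while the labels speak of siRNAs, so the number of siRNAs behind these libraries is uncertain, and all come from 1 cell line. The libraries held from 19508925 to 28936374 counted reads.

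The CITED2 mRNA was not lower in the libraries labelled si-CITED2. It was at 859, 892 and 773 normalized counts in si-Control replicates 1, 2 and 3, and at 1084, 921 and 984 in the libraries labelled si-CITED2. All values of the second group lay above those of the first, with a log2 fold change of 0.24 (SE 0.074, adjusted p = 0.0363 in edgeR's quasi-likelihood test). The mRNA therefore goes against the label, and every direction below is that of the libraries labelled si-CITED2 against si-Control. The study checked the knockdown by immunoblot of the CITED2 protein, which the count files do not measure. The call was lost in 5 of 13 alternatives. All 5 epithelial markers were counted in every library and summed to 1818 to 1907 CPM (counts scaled to library size) in si-Control and 1934 to 2117 CPM in the libraries labelled si-CITED2. Within that list EPCAM and CDH1 fell, by 0.33 and 0.52 on the log2 scale, and KRT8 and KRT18 rose by 0.24 and 0.18, the last not without si-Control replicate 2 or 3 or si-CITED2 replicate 1 (highest adjusted p 0.145 in edgeR). Their part in the results below was not tested. The prostate marker KLK3 had at most 2 counts in any library. Adipocyte markers, which matter for genes of fat storage, summed to 1.69 to 2.31 CPM in si-Control and 1.64 to 2.13 CPM in the libraries labelled si-CITED2, with CIDEC at 0 in 5 of the 6 libraries. In these bulk libraries, fewer cells that express a gene and less RNA per cell cannot be told apart.

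PPARs are nuclear receptors that bind fatty acids and their derivatives. Each pairs with a retinoid X receptor (RXR) on a direct repeat of the motif AGGTCA and recruits coactivators such as p300 and CBP, to which CITED2 also binds. PPARA is best known for fatty acid oxidation in the liver, PPARG for fat cell formation and lipid storage, and PPARD for fatty acid use in many tissues. ANGPTL4, which encodes a secreted inhibitor of lipoprotein lipase, is a classical target of all these receptors. It is also known as a gene that hypoxia, glucocorticoids and transforming growth factor β (TGF-β) induce. PDK4, CPT1A, PLIN2 and ACADVL encode an inhibitor of pyruvate oxidation, the gatekeeper of mitochondrial fatty acid import, a lipid droplet coat protein and the first enzyme of very long-chain fatty acid oxidation.

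The bases before the annotated start are shown for the pair of members with the largest rises and the pair that fell, since these are the promoters of the genes that moved. Sequences are from RefSeq on GRCh38.p14, with 250 bases upstream of the start printed 5′ to 3′ on the gene's strand. Capitals mark the matches found on either strand to AGGTCANAGGTCA (the PPAR and RXR repeat), AGGTCA (a single hexamer of that repeat), CAGAC (the SMAD box) and ACGTG (the core of the hypoxia response element). A match to AGGTCANAGGTCA also counts as a match to AGGTCA.
ANGPTL4, chr19:8363905-8364154, plus strand: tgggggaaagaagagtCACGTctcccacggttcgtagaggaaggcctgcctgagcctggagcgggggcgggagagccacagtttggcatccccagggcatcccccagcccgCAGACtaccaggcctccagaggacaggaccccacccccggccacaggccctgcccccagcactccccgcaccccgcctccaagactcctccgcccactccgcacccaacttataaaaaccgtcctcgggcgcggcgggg
PPARD, chr6:35342308-35342557, plus strand: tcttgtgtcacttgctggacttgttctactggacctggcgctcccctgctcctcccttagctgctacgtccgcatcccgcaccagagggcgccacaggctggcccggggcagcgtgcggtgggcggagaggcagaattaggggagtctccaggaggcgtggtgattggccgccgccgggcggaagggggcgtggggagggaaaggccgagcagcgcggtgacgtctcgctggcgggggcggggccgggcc
PDK4, chr7:95596517-95596766, minus strand: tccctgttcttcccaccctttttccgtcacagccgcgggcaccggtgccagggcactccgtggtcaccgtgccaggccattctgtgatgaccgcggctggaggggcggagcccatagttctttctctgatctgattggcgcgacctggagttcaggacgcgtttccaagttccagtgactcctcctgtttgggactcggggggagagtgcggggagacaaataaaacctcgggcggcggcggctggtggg
PLIN2, chr9:19127493-19127742, minus strand: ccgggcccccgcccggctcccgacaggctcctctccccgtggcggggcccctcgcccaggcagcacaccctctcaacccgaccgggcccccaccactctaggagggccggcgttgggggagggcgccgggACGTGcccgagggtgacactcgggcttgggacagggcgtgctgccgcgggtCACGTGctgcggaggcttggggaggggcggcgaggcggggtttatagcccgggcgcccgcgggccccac

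The ANGPTL4 window held 1 CAGAC, whose first base lies 139 bases before the start, and 1 ACGTG on the opposite strand, 234 bases before it. The PLIN2 window held 3 matches to ACGTG, of which a pair overlap in a palindrome. The PPARD and PDK4 windows held no match to any of the 4 motifs. Among the 35116 windows of 27305 genes in the same table, 38% held CAGAC, 18.5% held ACGTG, 12.1% held AGGTCA and 0.0171% held the full repeat, so the letters found in these promoters are common ones. No window of the 8 members in the table held the full repeat. The PPAR site described for ANGPTL4 lies inside the gene, outside these windows.

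ANGPTL4 mRNA was far higher in the libraries labelled si-CITED2. It was at 736, 811 and 722 normalized counts in si-Control replicates 1, 2 and 3, and at 9468, 10671 and 9759 in the libraries labelled si-CITED2. The lowest value of the second group was many times the highest of the first, and the spread inside each group was small. The means were 756 ± 47.6 and 9966 ± 628 (SD, n = 3), a 13.1-fold difference, which is 3.72 on the log2 scale (SE 0.065) and the 13th highest of the 16314 genes. ANGPTL4 took 0.0031 to 0.0035% of all reads in si-Control and 0.04 to 0.045% in the libraries labelled si-CITED2. Its exons share 1 base with the antisense gene RAB11B-AS1, so few reads of that neighbour could enter its count.

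**Figure D1:**
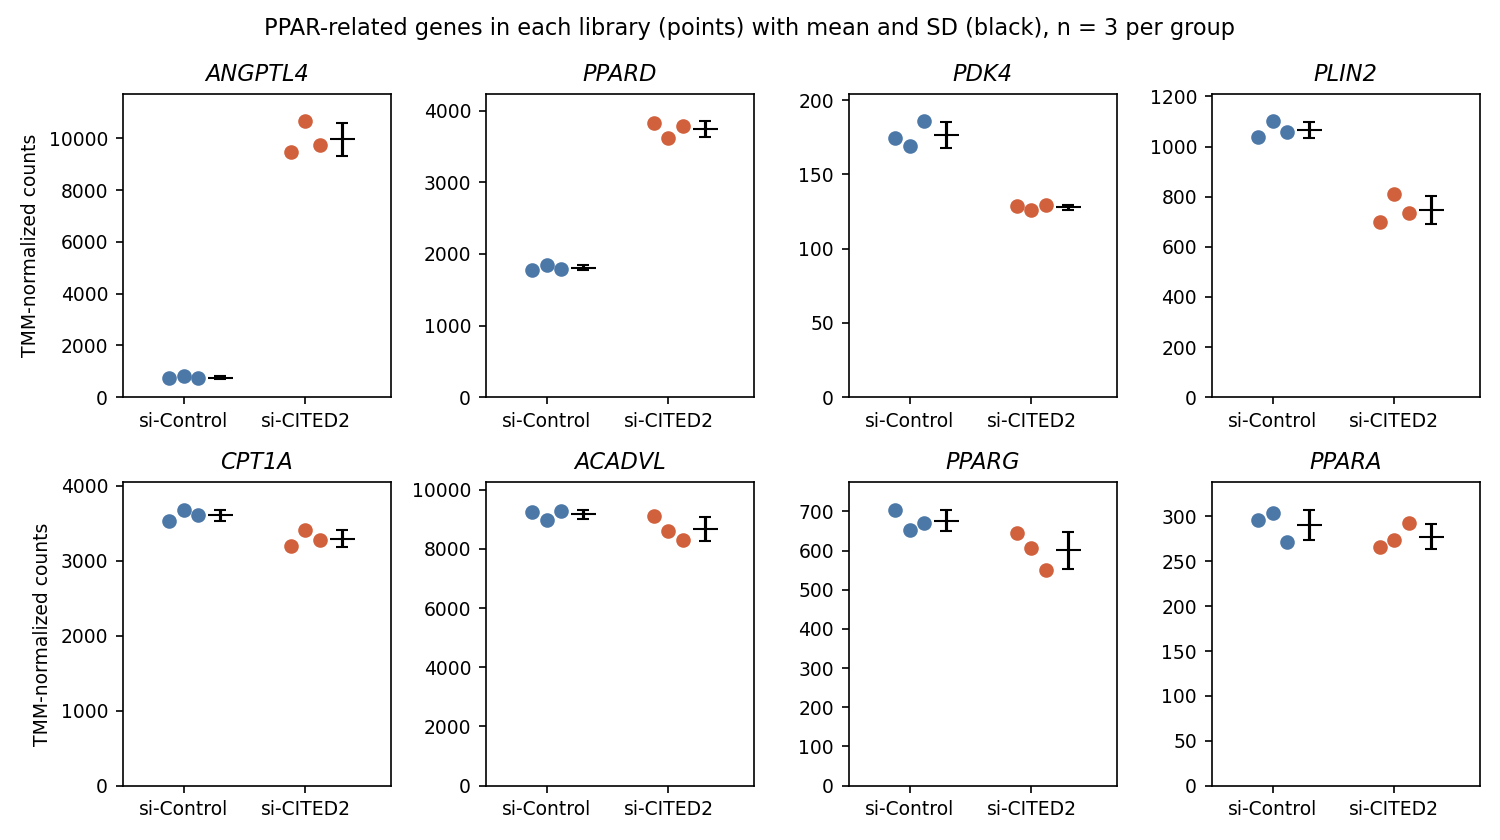
TMM-normalized counts (y axis, from 0) of the 8 members in the fit, with each library as a point and the mean and SD of each group (n = 3) in black. ANGPTL4 and PPARD stand higher in the libraries labelled si-CITED2, PDK4 and PLIN2 stand lower, and the groups of ACADVL and PPARA overlap.

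PPARD was the only other member that rose. It was at 1778, 1844 and 1793 normalized counts in si-Control replicates 1, 2 and 3, and at 3826, 3616 and 3783 in the libraries labelled si-CITED2. The groups were far apart compared with the spread within them, with means of 1805 ± 35 and 3742 ± 111 (SD, n = 3). The log2 fold change was 1.05 (SE 0.05, adjusted p = 1.82e-10 in edgeR), or 2.07-fold, and it ranked 234th of the fitted genes. Genes that were over 2-fold higher and passed the adjusted p made up 1.45% of all fitted genes.

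PPARG and PPARA did not pass the test. PPARG, the receptor of fat cells, was at 705, 652 and 672 normalized counts in si-Control and at 645, 608 and 550 in the libraries labelled si-CITED2. The groups did not overlap, but the highest treated value was just under the lowest control value, and the log2 fold change of -0.17 (95% interval -0.33 to -0.01) had an adjusted p of 0.144 in edgeR. PPARA was at 296, 304 and 272 against 266, 274 and 293 normalized counts. These values overlap, and the log2 fold change was -0.07 (95% interval -0.28 to 0.14, adjusted p = 0.705 in edgeR), so a modest change in either direction was not detectable.

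Per kilobase of annotated exon, PPARD was already the most abundant receptor in si-Control. The exon lengths used, over all annotated transcripts of a gene, were 4457 bases for PPARD, 4535 for PPARG and 13219 for PPARA. The levels and shares depend on these lengths. Levels in RPKM, which are reads per kilobase of exon scaled to library size, were 17.2 ± 0.33 for PPARD, 6.33 ± 0.25 for PPARG and 0.934 ± 0.054 for PPARA (SD, n = 3). In the libraries labelled si-CITED2 the same levels were 35.6 ± 1.1, 5.62 ± 0.45 and 0.891 ± 0.044. PPARD thus held 70.3% ± 1.1 of the summed receptor RPKM in si-Control and 84.5% ± 0.87 in the libraries labelled si-CITED2, while the share of PPARG was 25.9% ± 1.1 against 13.3% ± 0.97.

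The targets that govern fuel choice and lipid storage went the other way from ANGPTL4 or did not pass the test. Among the 7 tested members other than ANGPTL4, 1 rose and 2 fell, where 9.36% of all fitted genes rose, 8.09% fell and 17.4% passed in either direction. The contrast is the one that chose ANGPTL4, and nothing is read from the share of members called. Groups without overlap, seen in 6 of the 8 fitted members, were found in 32.5% of all fitted genes.

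PLIN2, whose protein coats lipid droplets, fell. It was at 1040, 1101 and 1058 normalized counts in si-Control and at 697, 809 and 733 in the libraries labelled si-CITED2. Every treated library lay below every control library, with a log2 fold change of -0.51 (SE 0.068, adjusted p = 4.51e-05 in edgeR), which is 1.43-fold lower.

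PDK4, the kinase that shuts off pyruvate dehydrogenase when fatty acids are burned, fell as well. It was at 174, 169 and 186 normalized counts in si-Control and at 129, 126 and 129 in the libraries labelled si-CITED2. The groups were apart, but the gene had only 106 to 210 reads per library. The log2 fold change was -0.46 (SE 0.12, adjusted p = 0.0164 in edgeR), or 1.37-fold lower. The call was lost without si-Control replicate 3 (adjusted p = 0.0596 in edgeR) and without si-CITED2 replicate 2 (adjusted p = 0.0544).

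CPT1A and ACADVL, which import and oxidize long-chain fatty acids in mitochondria, did not pass. CPT1A was at 3535, 3684 and 3611 normalized counts in si-Control and at 3192, 3411 and 3285 in the libraries labelled si-CITED2. The groups did not overlap, and the difference was small, with a log2 fold change of -0.13 (95% interval -0.23 to -0.03, adjusted p = 0.0779 in edgeR). ACADVL was at 9235, 8993 and 9289 against 9124, 8601 and 8316 normalized counts. The groups overlapped, and the log2 fold change, -0.08 (95% interval -0.18 to 0.02, adjusted p = 0.309 in edgeR), did not pass. ACADVL shares 1.75% of its exon bases with DLG4 on the other strand, and the strand setting of the counting is not given in the sources used here.

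FABP4, the fatty acid carrier of fat cells and macrophages, was close to absent. It had 0 reads in 5 libraries and 2 reads in si-CITED2 replicate 3. A count of 0 allows up to 3 reads, which is 0.104 to 0.154 CPM depending on the library, so no comparison was possible at this depth.

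**Figure D2:**
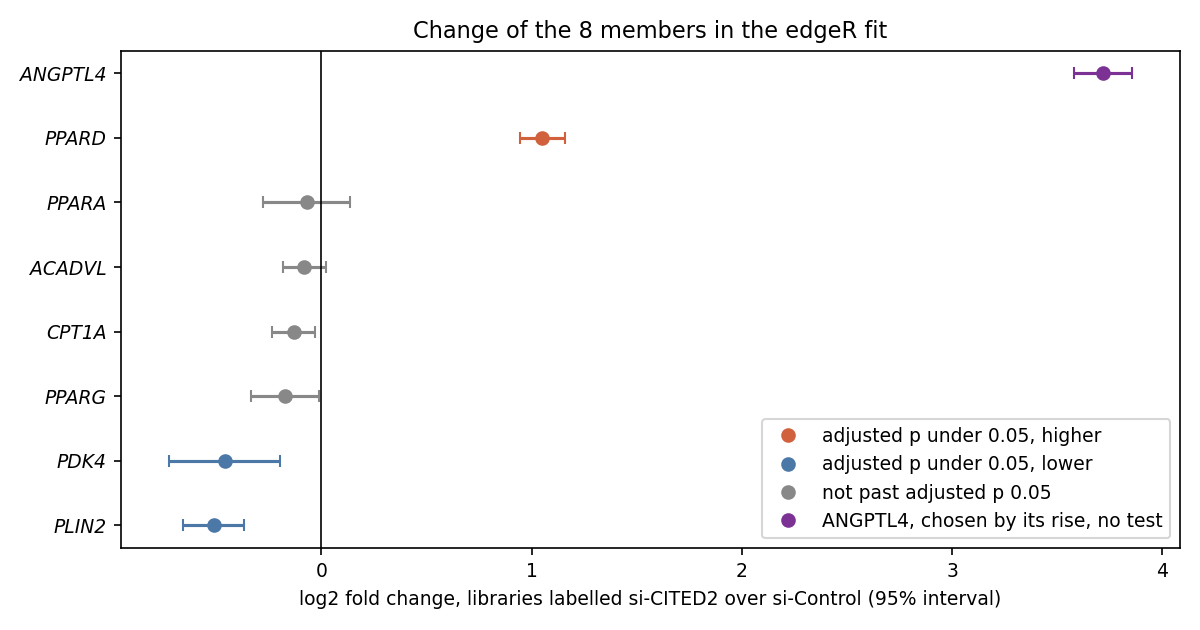
Log2 fold change of the libraries labelled si-CITED2 over si-Control (x axis) with its 95% interval for the 8 members in the edgeR fit (n = 3 per group). PPARD lies at 1.05, PDK4 and PLIN2 lie below 0, and ANGPTL4, at 3.72, is set apart in color because it was chosen by its rise.

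The order of the members by level per kilobase differed between the groups in the places of ANGPTL4 and of PPARD and CPT1A. In si-Control the RPKM fell from ACADVL (80 ± 1.4) over CPT1A (23.3 ± 0.48), PPARD (17.2 ± 0.33), ANGPTL4 (12.9 ± 0.81), PLIN2 (8.9 ± 0.26), PPARG (6.33 ± 0.25) and PDK4 (1.66 ± 0.081) to PPARA (0.934 ± 0.054). In the libraries labelled si-CITED2, ANGPTL4 stood first at 170 ± 11 RPKM, followed by ACADVL at 75.7 ± 3.6, PPARD at 35.6 ± 1.1 and CPT1A at 21.3 ± 0.71, so that PPARD stood above CPT1A where it had stood below it in si-Control. PLIN2 (6.23 ± 0.48) and PPARG (5.62 ± 0.45) came next, and their libraries overlapped, so these neighbours did not differ beyond their spread. The other neighbours in either order did not overlap. ANGPTL4 made up 4.1 to 4.62% of the reads of the 9 members in si-Control and 34.6 to 38% in the libraries labelled si-CITED2.

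The relatives of ANGPTL4 in its gene family did not pass the test. No other angiopoietin-like gene passed the test, with 5 of the other 7 fitted and log2 fold changes from -0.59 to 0.15. ANGPTL1 was at 225 ± 26 and 252 ± 11 normalized counts and ANGPTL7 at 121 ± 5.2 and 105 ± 22 (SD, n = 3). ANGPTL6 and ANGPTL8 share 20.3% and 28.6% of their exon bases with a gene on the opposite strand, so their levels are uncertain, while ANGPTL1 and ANGPTL7 share 0 exon bases with such a gene. ANGPTL4 held 61.5% ± 0.91 of the family's summed RPKM in si-Control and 95.8% ± 0.046 in the libraries labelled si-CITED2.

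PDK4 was a minor member of its family. It held 7.5% ± 0.12 of the summed PDK RPKM in si-Control and 5.9% ± 0.15 in the libraries labelled si-CITED2, and PDK3 held 61.8% ± 2.9 and 59.2% ± 1.4. Of 9 genes of the PDK family and pyruvate dehydrogenase, 11.1% passed, against 17.4% of all fitted genes. PDP2, a phosphatase that opposes the PDKs, fell (log2 fold change -0.28, adjusted p = 0.0271 in edgeR) and 8 did not pass. The PDP2 call was lost without si-Control replicate 2 or 3 and whichever si-CITED2 library was left out (highest adjusted p 0.12). The subunit genes PDHA1 (0.02) and DLD (0.12) were among these 8, by log2 fold change.

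PLIN2 held 16.8% ± 0.95 of the perilipin RPKM in si-Control and 11.3% ± 0.53 in the libraries labelled si-CITED2. PLIN3 made up most of the rest, and its log2 fold change was 0.14 (adjusted p = 0.0783 in edgeR, and 0.0209 without si-Control replicate 1). CPT1A held 96.3% ± 0.29 and 95.2% ± 0.28 of the CPT1 RPKM, so the muscle and brain forms CPT1B and CPT1C were minor. In place of FABP4, these cells expressed FABP5, the epidermal form, at 98.2% ± 0.35 of the FABP RPKM in si-Control and 98.3% ± 0.56 in the libraries labelled si-CITED2, with a log2 fold change of -0.05 (adjusted p = 0.712 in edgeR).

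ACADVL held 64.9% ± 0.52 and 66.3% ± 0.68 of the RPKM of 11 acyl-CoA dehydrogenases. Of the other 10, 20% passed, against 17.4% of all fitted genes. ACADSB (log2 fold change -0.44, adjusted p = 0.000713 in edgeR) and IVD (-0.33, adjusted p = 0.00291) fell and 8 did not pass. Both act on branched-chain acyl-CoAs from amino acid breakdown and not on long fatty acids. ACADM and ACAD9 were among those that did not pass, at log2 fold changes of -0.05 and -0.17, and ACAD9 did without si-CITED2 replicate 1 (adjusted p = 0.0223 in edgeR).

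**Figure D3:**
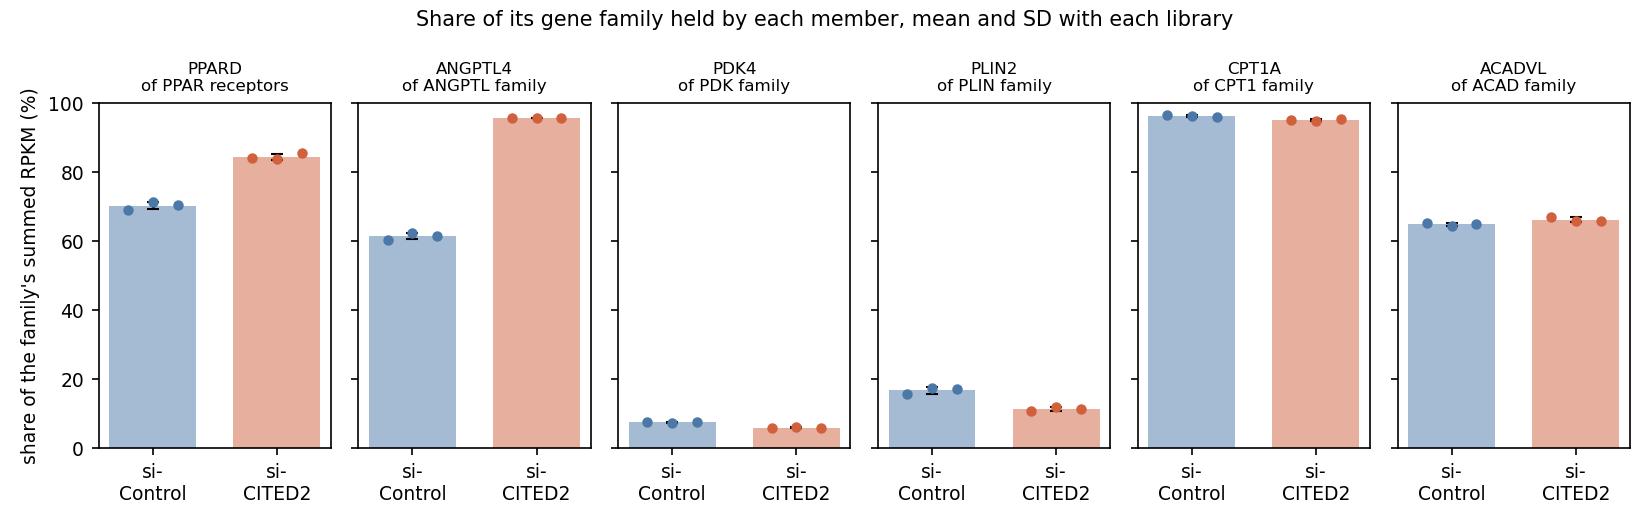
Share of each member in the summed RPKM of its gene family (y axis, percent), as group means with SD (n = 3) and each library as a point. ANGPTL4 goes from 61.5% to 95.8% and PPARD from 70.3% to 84.5%, while PDK4 and PLIN2 lose share and CPT1A and ACADVL stand close to their control shares, at 96.3% against 95.2% and 64.9% against 66.3%.

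Most further PPAR targets did not pass the test. A list of 63 further PPAR target genes was written from general knowledge, of which 47 were in the fit. Of these 47, 7 rose, 4 fell and 36 did not pass, so 23.4% passed against 17.4% of all fitted genes. Their median log2 fold change was -0.03, and that of all fitted genes was -0.001. Only G0S2 was over 2-fold higher.

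Among 17 genes of mitochondrial fatty acid oxidation, none rose and 2 fell, where 9.36% of all fitted genes rose and 8.09% fell. The share that passed was 11.8%, against 17.4% of all fitted genes. UCP2, a carrier of the inner membrane, had a log2 fold change of -0.30 (adjusted p = 0.00784 in edgeR) and ECI1, an isomerase for unsaturated fatty acids, one of -0.21 (adjusted p = 0.0294). The abundant HADHA, which encodes a subunit of the trifunctional protein, was at -0.06 and ETFA, an electron carrier subunit, at 0.02, and neither passed. ECI1 did not pass with the replicate number as a block (adjusted p = 0.0544 in edgeR) or without si-Control replicate 2 or 3 or si-CITED2 replicate 2 or 3 (highest adjusted p 0.124), and UCP2 did not without si-CITED2 replicate 2 (adjusted p = 0.0511).

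Of 11 fitted genes for uptake, binding and activation of fatty acids, ACSL4 (log2 fold change 0.69, adjusted p = 5.34e-08 in edgeR) and ACSL3 (0.21, adjusted p = 0.0126) rose. Both encode ligases that activate long-chain fatty acids. ACSL3 did not pass without si-Control replicate 2 or si-CITED2 replicate 2 or 3 (highest adjusted p 0.0563). The transporter gene SLC27A2 fell (-0.36, adjusted p = 0.00678), and DBI (0.10) and FABP5 were the most abundant genes that did not pass. In all, 27.3% of these 11 genes passed, against 17.4% of all fitted genes. Of 6 fitted genes of peroxisomal and microsomal oxidation, 1 rose and none fell, so 16.7% passed. The 5 that did not pass included HSD17B4 (log2 fold change -0.03) and CAT (-0.18). CAT passed without si-Control replicate 3 (adjusted p = 0.031).

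Of 8 fitted genes of lipid droplets and lipoproteins, G0S2 rose and 7 did not pass, so 12.5% passed against 17.4% of all fitted genes. G0S2 encodes an inhibitor of adipose triglyceride lipase. It was at 674, 625 and 600 normalized counts in si-Control and at 2534, 2831 and 2715 in the libraries labelled si-CITED2. The groups were far apart, with a log2 fold change of 2.09 (SE 0.064, adjusted p = 5.65e-13 in edgeR), or 4.25-fold. LPIN1 and VLDLR, the most abundant of the rest, had log2 fold changes of -0.07 and 0.16. LPIN1 passed without si-Control replicate 1 (adjusted p = 0.0499 in edgeR) and VLDLR without si-Control replicate 2 (adjusted p = 0.0371). The other 9 listed genes of this group were too low to be fitted, and LPL had 0 reads in all 6 libraries.

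Among 5 fitted targets with other roles in metabolism, NR1H3 (log2 fold change 0.47, adjusted p = 0.00155 in edgeR), SCD (0.37, adjusted p = 0.000103) and FADS2 (0.26, adjusted p = 0.0048) rose. They encode the oxysterol receptor LXRα and desaturases of fatty acid synthesis, and SCD and FADS2 are also known targets of LXR and SREBP. TXNIP, an arrestin-like gene that responds to glucose, fell (-0.51, adjusted p = 0.00169), and ME1 did not pass (0.11). Of this list of 5 genes 80% passed, against 17.4% of all fitted genes.

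The mRNAs of proteins that act with ANGPTL4 were taken from a list of 9 lipases, cofactors and proteases. Of these, 6 were fitted, 2 rose and none fell, so 33.3% of the fitted genes passed against 17.4% of all fitted genes. The mRNA of lipoprotein lipase itself, LPL, was not detected. LIPG, endothelial lipase, was at 15.1, 33 and 40 normalized counts in si-Control and at 113, 132 and 113 in the libraries labelled si-CITED2 (log2 fold change 2.05, SE 0.25, adjusted p = 1.53e-05 in edgeR). FURIN, a convertase of the group that cleaves ANGPTL4, rose by 0.79 on the log2 scale (adjusted p = 7.64e-09), while PCSK7 (0.01) and PCSK6 (-0.34) did not pass. PCSK6 passed without si-Control replicate 1 (adjusted p = 0.0177) and with every gene that had a count in the fit (adjusted p = 0.0347).

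Among the partners of the PPARs, 3 of 13 fitted genes rose and none fell. The share that passed was 23.1%, against 17.4% of all fitted genes. NRIP1, a corepressor, rose by 0.20 on the log2 scale (adjusted p = 0.0197 in edgeR), and CITED2 was among the 3. NRIP1 did not pass without si-Control replicate 2 or si-CITED2 replicate 2 or 3 (highest adjusted p 0.13). The coactivator gene MED1 (-0.07) and the corepressor gene NCOR1 (-0.04) did not pass, nor did RXRA (-0.12) or EP300 (-0.07). RXRG and PPARGC1A were too low to be fitted.

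**Figure D4:**
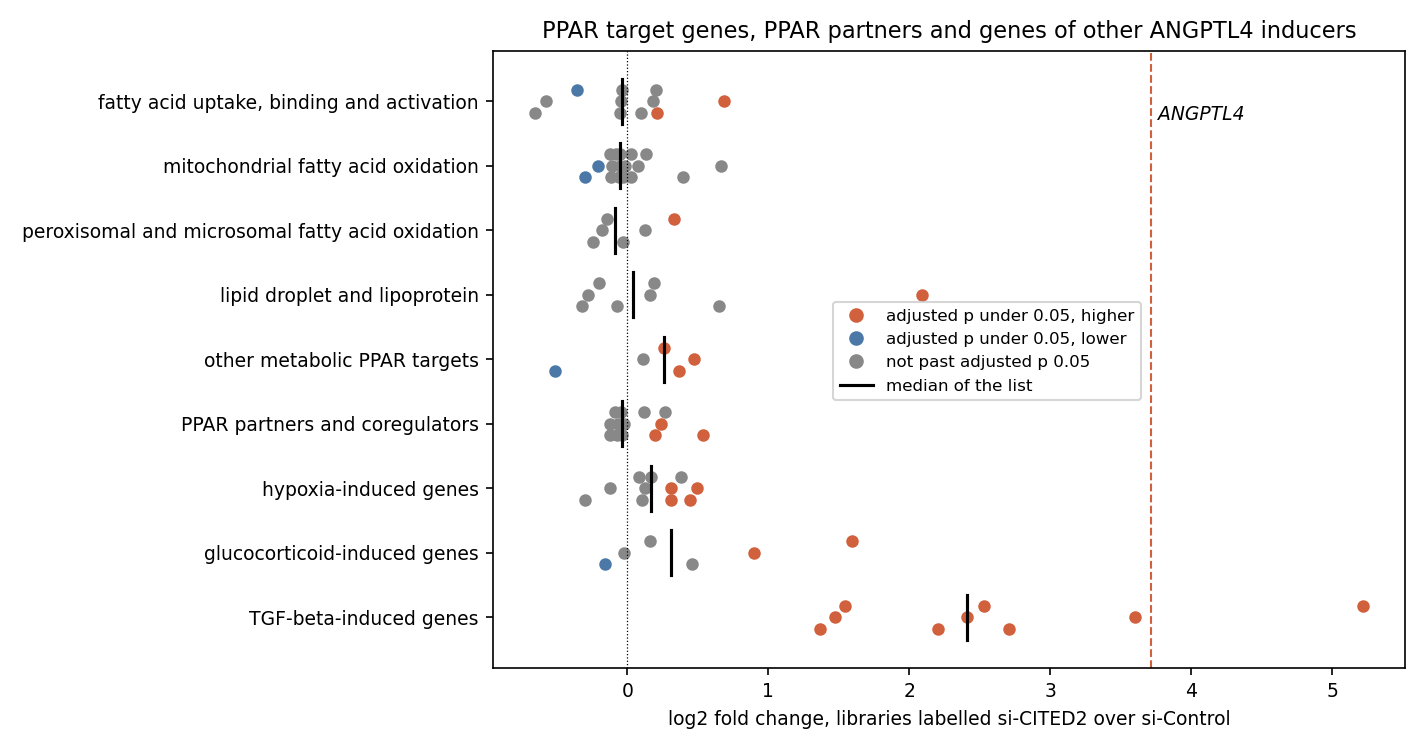
Log2 fold change (x axis) of each fitted gene, as a point, in the lists of PPAR targets, PPAR partners and genes induced by other known inducers of ANGPTL4, with the list's median as a bar. The 47 fitted PPAR targets have a median of -0.03 with G0S2 at 2.09 as the far point. The TGF-β-induced genes all lie to the right of 0, and the rise of several was known before that list was written. The dashed line marks ANGPTL4.

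Genes of the other known inducers of ANGPTL4 were set beside it. All 9 TGF-β-induced genes listed were higher past the adjusted p and over 2-fold, with a median of 2.41 on the log2 scale, PMEPA1 at 3.60 and TGFBI at 2.70. The rise of several of these genes was known before the list was written, so it is a description. Of 11 fitted hypoxia-induced genes, 4 rose and none fell, led by LDHA (0.49), VEGFA (0.44) and SLC2A1 (0.31), all under 2-fold, and PGK1 (0.11) and BNIP3 (-0.12) did not pass. Of 6 fitted glucocorticoid-induced genes, SGK1 (1.59) and DUSP1 (0.90) rose and FKBP5 fell (-0.16), while PER1 and KLF9 did not pass. The shares that passed were 36.4% of the hypoxia list and 50% of the glucocorticoid list, against 17.4% of all fitted genes. The FKBP5 call was lost whichever library was left out and with the replicate block (highest adjusted p 0.102 in edgeR). The part of these pathways in the level of ANGPTL4 was not tested.

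The genes whose pattern over the 6 libraries was most like that of ANGPTL4 were PMEPA1, IGF2, INS-IGF2, COL7A1 and TAGLN. Likeness was the root mean square difference between log2 CPM values after each gene's own mean was taken off, over genes that averaged at least 100 normalized counts. It was 0.108 for PMEPA1 and 0.454 for TAGLN. IGF2 and INS-IGF2 cover the same locus and may hold the same reads. The measure uses the same contrast that chose ANGPTL4, so the list is a description. IGF2, INS-IGF2, COL7A1 and TAGLN had si-Control means of 30.2, 28.2, 23.2 and 41.5 normalized counts and reached that minimum only through the libraries labelled si-CITED2.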

How the data were processed

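RNA-seq of 6 PC3 libraries was analysed, 3 per group as the sample titles give it. The authors deposited 1 file per library with raw counts of reads per gene symbol, without normalization. The submitters' processing notes name TopHat, edgeR and the hg19 build, and the labels a SMARTer mRNA library kit. The counting program, annotation and strand setting are not given in the sources used here. The files hold 25737 rows for 24462 symbols, and for 286 symbols with several rows the row with most counts was kept (0.0821% of counts left out).

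Counts were tested in R 4.3.3 with edgeR 4.0.16 (filterByExpr, TMM, glmQLFit and glmQLFTest, no block), with Benjamini-Hochberg adjustment over 16314 genes and a call at an adjusted p under 0.05. SEs and 95% intervals of log2 fold changes come from the F statistic, and the intervals are not adjusted for multiple tests. For normalized counts, each library was scaled by its TMM-effective size to the mean effective size. Log2 CPM used a prior count of 2. RPKM used the union of exons in GENCODE 29 (GRCh38), a different build from the counts. The union can be longer than the transcripts these cells express, which lowers the RPKM. Levels between genes and shares of families are therefore approximate. ANGPTL8 was matched as C19orf80.

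Between replicates of 1 group, chi-square divided by its degrees of freedom was 2.79 to 7.47, so none was a repeat deposit. The labels do not say that the cultures were separate, the study calls its experiments independent, and p-values measure the spread between these libraries. Groups of 3 allow no exact permutation p below 0.1. The members and lists were chosen with earlier results of these data known. Named genes were the members, CITED2, and from each list up to 3 genes called in each direction and up to 2 abundant genes not called. LPL, CIDEC, RXRA, EP300, PPARGC1A, RXRG, the family relatives PDK3, PLIN3, CPT1B, CPT1C and FABP5 and the marker genes were named after their values were seen. A few genes of the lists are not reported here by name. The scripts were tested on simulated data. DESeq2 1.42.0, other normalizations and filters, summed rows, the replicate number as a block and leaving out each library were tried as alternatives.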

Additional observations from a re-analysis of the deposited data

How the results depend on the processing

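PPARD, PLIN2 and G0S2 kept their direction and an adjusted p under 0.05 in all 13 alternatives, with log2 fold changes of 1.03 to 1.07 for PPARD and -0.58 to -0.47 for PLIN2. The log2 fold change of ANGPTL4, which was chosen by its rise and is given without a test, was 3.66 to 3.77. Leaving out single libraries gave 1 to 2 members called lower, since PDK4 was lost without si-Control replicate 3 and without si-CITED2 replicate 2, and 2 to 5 further PPAR targets called lower, with 2 without si-CITED2 replicate 2. With library sizes alone in place of TMM, CPT1A also passed (adjusted p = 0.0486), and CITED2 did not. The CITED2 call was also lost without si-Control replicate 1 or 3 and without si-CITED2 replicate 1 or 3, with log2 fold changes of 0.17 to 0.29 over all alternatives. No gene of the members, lists or marker lists that passed in the reported fit changed direction in these alternatives. Samples with the same replicate number showed no shared deviation (correlations across genes of -0.038, 0.034 and -0.011). With 3 libraries per group these values cannot decide whether the numbers pair the samples. With the replicate number as a block, 1405 genes were higher and 1154 lower in place of 1527 and 1319, and ANGPTL4 was at 3.72. Among the genes of the members, lists and marker lists, the calls of ECI1 and FKBP5 were lost with the block and no others. FABP4 and LPL are limited by depth.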
